A study of Mus musculus with 4 samples.

Results

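Collagen genes were examined in RNA-seq libraries of wild-type (WT) mouse embryonic stem cells (mESCs) and of mESCs labelled *Spen* knockout (KO). The members were the protein-coding genes whose GENCODE vM1 symbol has the form Col, a number, a and a number. There were 43 such genes among 22380 protein-coding genes and 37310 genes in all. A summed count of at least 40 over the 4 libraries was reached by 32 of them, and 11 were below it. *Col3a1*, with a summed count of 40, was just inside this limit, and *Col4a4* (38), *Col1a2* (36) and *Col15a1* (32) were just outside. The other genes below it were *Col6a1* (26), *Col4a3* (25), *Col4a6* (22), *Col9a1* (21), *Col24a1* (5), *Col28a1* (4), *Col19a1* (2) and *Col8a1*, which had a count of 0 in every library.

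Both groups were grown in serum and LIF on gelatin, and each had 2 libraries. The WT group is the HATX line, in which *Xist* on the X chromosome can be switched on with doxycycline, and the KO-labelled group is clone 2 of a *Spen* deletion made in that line, so both groups carry the *Xist* system. The strain is labelled as a mixed genomic background, and the study describes the cells as haploid, which was not measured here. No treatment is stated, so the comparison is of uninduced cells as far as the labels say. Spen is a repressor protein that *Xist* RNA needs to silence genes, and the comparison asks which genes differ when it is lost. Each group is 1 line or 1 clone, so any other difference between clone and line is part of every comparison and cannot be told apart from the loss of *Spen*. Nothing in the labels says that replicates were separate cultures, and p-values then measure only the spread between these libraries, which may be technical.

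Total counts ranged from 36667685 to 61908422 per library, with both WT libraries below both KO-labelled ones, and 21850 to 22591 genes had at least 1 count. *Spen* itself (chr4:141023805-141094512) had 3716 and 3047 normalized counts in WT and 7797 and 6242 in the KO-labelled libraries, a log2 fold change of 1.05 ± 0.21 (SE, DESeq2 adjusted p = 7.7e-06). The count over the whole gene was not reduced by the labelled knockout and so does not check that label. These libraries are called KO-labelled throughout. The 9 mESC markers summed to 236084 and 232436 normalized counts in WT and to 240661 and 251482 in the KO-labelled libraries, so the cells carried the markers of their label in both groups. The median log2 fold change also differed between chromosomes, from -0.35 on chromosome 10 to 0.38 on chromosome 19, and values relative to these medians are given beside the genes whose side of an adjusted p of 0.05 they change.

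Collagens are extracellular matrix proteins in which 3 chains wind around each other. The winding requires a glycine at the start of each triplet of residues, because no larger side chain has room in the core of the helix. Fibrillar collagens have long unbroken helices and build fibrils, type IV collagen has a broken, flexible helix and builds the network of basement membranes, and other classes decorate fibrils, anchor epithelia or span the cell membrane. In the early mouse embryo type IV collagen and laminin form the first basement membranes, and cells of the parietal endoderm make both in large amounts.

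The glycine repeat is what the members share. Genes have these symbols because they code for collagen chains, so its presence describes the members and tests nothing. In the longest coding sequence of each gene, all 43 collagen genes had an unbroken run of at least 10 triplets that begin with a glycine codon, against 51 of 22320 other protein-coding genes with a coding sequence in the annotation (0.228%). The median longest run was 60 triplets in the collagen genes and 2 in the others. The run was 338 triplets long in the fibrillar genes *Col1a1*, *Col5a1*, *Col11a1* and *Col11a2*. In *Col4a1* and *Col4a2* the longest runs had 40 and 66 triplets, and 443 and 429 triplets were spread over 22 and 24 runs of at least 5. *Col18a1* had 16 such runs with a longest of 30, and *Col17a1* 15 with a longest of 56. The following stretches of 12 triplets, the start of the longest run in each gene, are shown for the fibrillar, network-forming, transmembrane and proteoglycan members that the results turn on, read 5′ to 3′ with the glycine codon that begins each triplet in capitals. They are exonic coding sequence of build mm9, and the codons named are counted from the start codon.
*Col4a1*, codons 43 to 78: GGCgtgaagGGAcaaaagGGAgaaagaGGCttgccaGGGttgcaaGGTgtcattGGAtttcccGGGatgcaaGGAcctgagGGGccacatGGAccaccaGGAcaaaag
*Col4a2*, codons 777 to 812: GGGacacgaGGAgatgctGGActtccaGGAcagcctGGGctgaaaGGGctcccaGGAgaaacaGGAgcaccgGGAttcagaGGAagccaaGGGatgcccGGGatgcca
*Col11a1*, codons 527 to 562: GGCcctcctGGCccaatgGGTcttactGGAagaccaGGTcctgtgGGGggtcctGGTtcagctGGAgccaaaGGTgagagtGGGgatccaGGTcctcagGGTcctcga
*Col17a1*, codons 648 to 683: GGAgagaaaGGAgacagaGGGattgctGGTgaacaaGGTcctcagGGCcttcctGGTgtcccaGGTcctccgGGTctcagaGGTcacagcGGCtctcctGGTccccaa
*Col18a1*, codons 953 to 988: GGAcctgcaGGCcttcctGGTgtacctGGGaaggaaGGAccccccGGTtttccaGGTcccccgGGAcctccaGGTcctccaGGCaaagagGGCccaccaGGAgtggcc

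**Figure D1:**
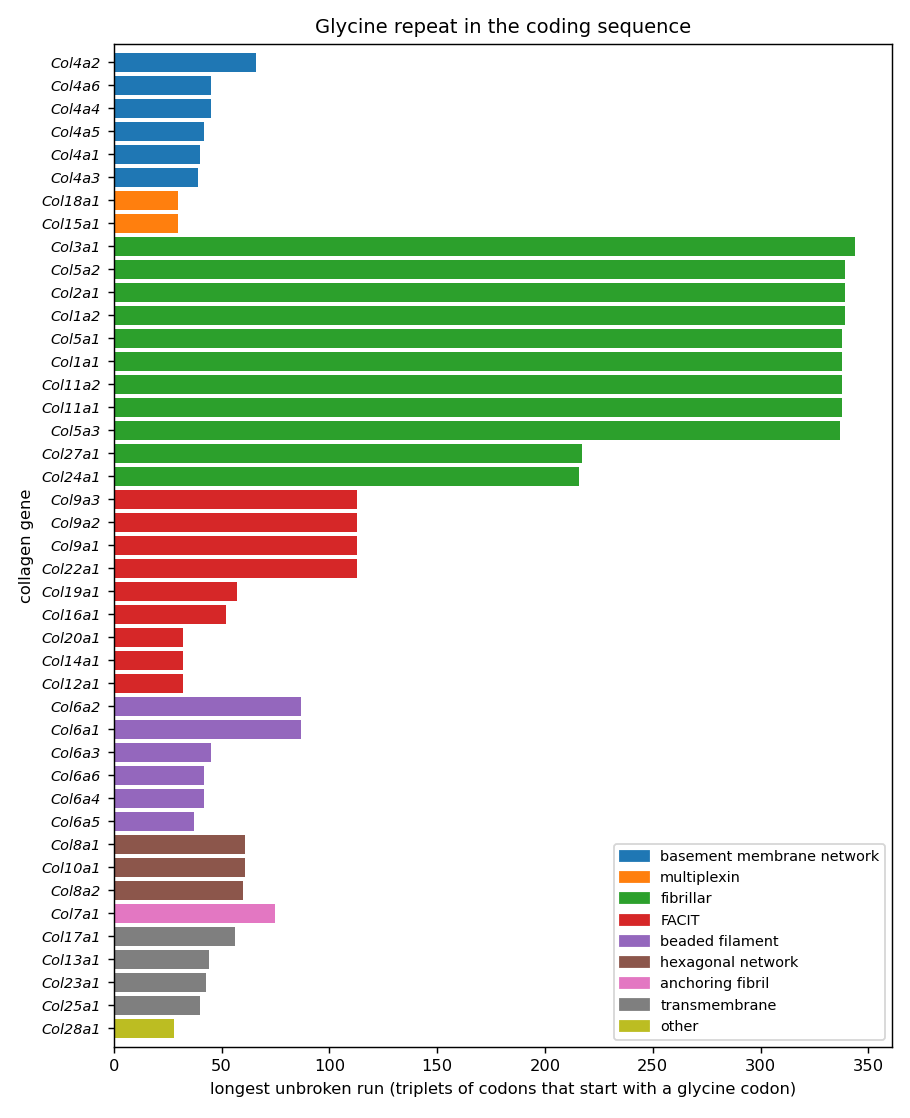
The glycine repeat of the collagen genes, by structural class. The longest unbroken run is plotted in triplets that begin with a glycine codon; the fibrillar genes other than *Col24a1* and *Col27a1* have runs of 337 to 344 triplets, and the type IV chains 39 to 66.

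The type IV genes lie in pairs, head to head. The annotated first exons of *Col4a1*, on the minus strand, and *Col4a2*, on the plus strand, overlapped by 22 bases. *Col4a4* and *Col4a3* on chromosome 1 start 71 bases apart, and *Col4a6* and *Col4a5* on the X chromosome 1308 bases apart. The shared start of the *Col4a1* and *Col4a2* pair is shown because both genes were lower in the KO-labelled libraries. It is given on the plus strand of mm9, with the overlap of both first exons in capitals.
chr8:11312801-11312830: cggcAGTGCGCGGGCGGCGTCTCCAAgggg
In windows of 250 bases before to 50 bases after the start, the *Col4a1* and *Col4a2* promoters had CpG ratios (observed over expected) of 0.902 and 0.818, against a median of 0.442 over the 43 collagen genes and of 0.534 over 22375 protein-coding genes. A CpG ratio of at least 0.6 was found in 12 collagen promoters (27.9%) and in 45.2% of all promoters. The letters GGGCGG or CCGCCC (a GC box, either strand) were in 24 collagen promoters (55.8%) against 43.4% of all, CCAAT or ATTGG in 18 (41.9%) against 37.9%, and TATAAA or TTTATA in 6 (14%) against 13.4%. None of these words contains another. The windows of *Col4a1*, *Col4a2*, *Col18a1* and *Col11a1*, lower in the KO-labelled libraries, each held a GC box and a CCAAT box. Of other genes with a DESeq2 adjusted p under 0.05, *Col6a5* held a GC box alone of these 2 words. *Col9a2*, *Col9a3* and *Col17a1* held a CCAAT box without a GC box, and *Col27a1* held neither. Both words were also found in genes that did not pass that test, such as *Col2a1*, *Col5a3* and *Col7a1*. Over the 32 genes, which share their libraries and annotation, the CpG ratio and the WT level per kilobase had a Spearman rho of 0.01.

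Levels are given as normalized counts (DESeq2 size factors) and, to compare genes, per kilobase of exonic length. *Col18a1*, a basement membrane proteoglycan whose end fragment is endostatin, stood far above the other collagens. Its level was 3393 normalized counts per kilobase in WT and 2399 in the KO-labelled libraries. It made up 76.8% and 77.9% of the summed collagen level per kilobase in WT and 77.2% and 77.4% in the KO-labelled libraries. Next in WT came *Col9a2*, a chain of the fibril-associated collagen IX, at 327 per kilobase, and *Col4a1* at 208. *Col5a1*, a chain of the minor fibrillar collagen V, and *Col4a2* followed at 73.8 and 72.8. These 5 genes, the highest in WT, held 93% and 92.8% of the summed level in WT, and 90.4% and 91.1% in the KO-labelled libraries.

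Other members were low. *Col6a5*, *Col2a1*, *Col9a3* and *Col20a1* had WT levels between 21.3 and 46.7 normalized counts per kilobase. *Col6a4*, *Col17a1*, *Col7a1*, *Col27a1*, *Col11a1*, *Col10a1* and *Col13a1* followed between 12.3 and 19.3. *Col5a3*, *Col5a2*, *Col14a1*, *Col22a1*, *Col4a5*, *Col11a2*, *Col8a2*, *Col6a6* and *Col1a1* lay between 3.78 and 9.79. *Col6a2*, *Col16a1*, *Col23a1*, *Col25a1*, *Col12a1*, *Col3a1* and *Col6a3* lay between 1.10 and 2.62. The main fibrillar collagens of connective tissue, types I and III, were thus near the bottom of the order.

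**Figure D2:**
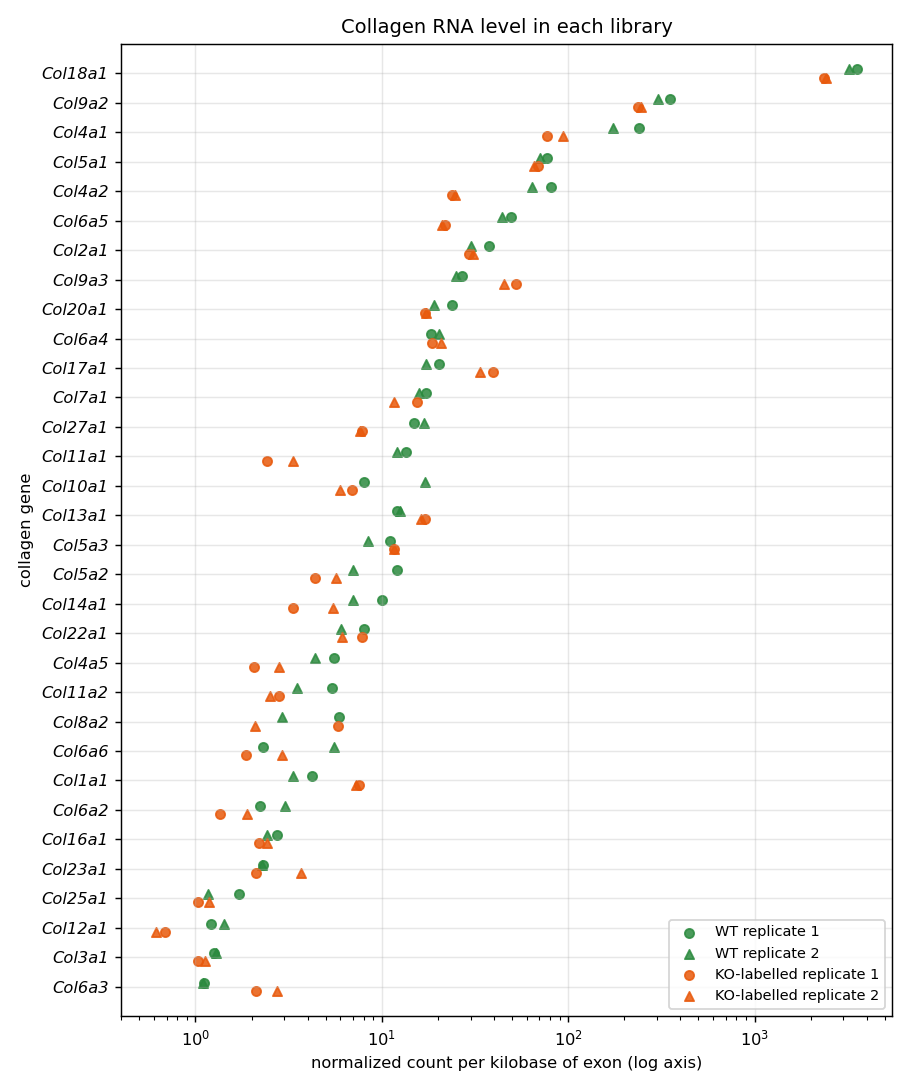
Level of each collagen gene in each library, in normalized counts per kilobase on a log axis, with WT libraries in green and KO-labelled libraries in orange. *Col18a1*, with group means of 3393 and 2399, lies above every other gene in all 4 libraries, and *Col9a2* is next.

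The summed collagen level was lower in the KO-labelled libraries. It was 4640 and 4134 normalized counts per kilobase in WT and 3066 and 3140 in the KO-labelled libraries. Without *Col18a1* it was 1077 and 912 in WT and 699 and 709 in the KO-labelled libraries. Neither sum overlapped between the groups. Collagen genes took 0.0645% and 0.0586% of all counts in WT and 0.0431% and 0.0434% in the KO-labelled libraries. In bulk RNA, fewer cells that express a gene and less RNA per cell cannot be told apart.

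Of the 32 genes, 4 were called lower and 0 higher at a minimum fold change of 2 and a DESeq2 adjusted p under 0.001. The called genes were the type IV chains *Col4a1* and *Col4a2*, the collagen VI chain *Col6a5* and the fibrillar chain *Col11a1*. Among all 17710 genes tested, 1.36% were called higher and 3.15% lower, so that the 4 lower calls (12.5% of the 32 genes) were above the background share. At an adjusted p under 0.05 without a fold limit, 2 collagen genes were higher (6.25%), where 16.4% of all genes were, and 7 were lower (21.9%), where 15.8% were. At an unadjusted p under 0.05, DESeq2 gave 2 higher (20.1% of all genes were) and 8 lower (19.5% of all genes were). edgeR had 0 genes called higher at the fold limit and adjusted p under 0.001, and 3 higher at an adjusted p under 0.05. The groups did not overlap for 24 of 32 genes (75%), a share close to the 70.2% of all genes. Below 0 were 24 log2 fold changes and above 0 were 8, with a median of -0.35 against 0.005 over all genes tested. Of those below 0, 5 turned above it when 1 library was left out or chromosome medians were removed, and 2 of those above 0 turned below, none of them with an adjusted p under 0.05. Without WT replicate 1, WT replicate 2 or KO-labelled replicate 1, the calls were *Col4a1* and *Col4a2* (2 genes), and without KO-labelled replicate 2 they were these and *Col11a1* (3 genes).

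**Figure D3:**
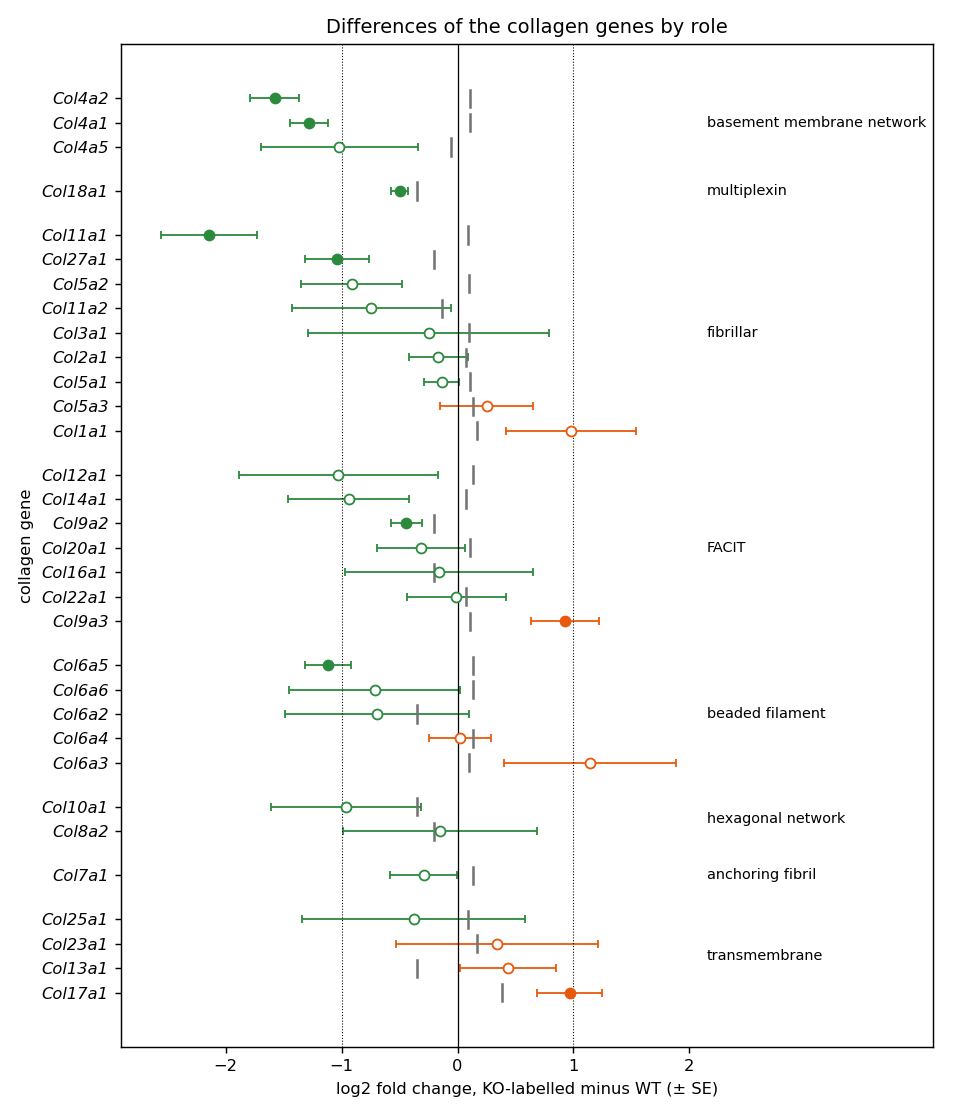
Log2 fold change (KO-labelled minus WT) of each collagen gene with its SE, by structural class. Filled points have a DESeq2 adjusted p under 0.05, grey ticks give the median of the gene's chromosome and dotted lines a fold change of 2; the 5 filled points beyond the lower line are *Col11a1*, *Col4a2*, *Col4a1*, *Col6a5* and *Col27a1*.

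Type IV collagen of basement membranes was the class with the lowest median log2 fold change (-1.28 over 3 genes). *Col4a1* (chr8:11198423-11312826) codes for the major chain of the common type IV trimer, which it forms with the *Col4a2* product. It had 1645 and 1191 normalized counts in WT and 524 and 643 in the KO-labelled libraries. Its mean fell from 1418 ± 321 to 583 ± 83.6 (n = 2, SD), with a log2 fold change of -1.28 ± 0.16 (SE, DESeq2 adjusted p = 7.89e-14). The WT replicates of *Col4a1* differed from each other, and both lay above both KO-labelled libraries. *Col4a2* (chr8:11312805-11449287) had 538 and 426 normalized counts in WT and 159 and 164 in the KO-labelled libraries. Its mean fell from 482 ± 79.5 to 161 ± 4.15 (n = 2, SD), with a log2 fold change of -1.58 ± 0.21 (SE, DESeq2 adjusted p = 1.67e-12). Both partners of the head-to-head pair were thus lower in both KO-labelled libraries, and WT replicate 1 was the higher WT library for both. The ratio of *Col4a1* to *Col4a2* per kilobase was 2.97 and 2.72 in WT and 3.21 and 3.8 in the KO-labelled libraries. *Col4a5*, an X-linked chain, had 37.1 and 29.4 normalized counts in WT and 13.9 and 18.8 in the KO-labelled libraries (log2 fold change -1.02 ± 0.68, adjusted p = 0.27), and *Col4a4*, *Col4a3* and *Col4a6* were below the count limit.

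*Col18a1* (chr10:76514923-76629293), the multiplexin, was lower by a smaller amount. It had 25022 and 22619 normalized counts in WT and 16614 and 17066 in the KO-labelled libraries. Group means were 23821 ± 1699 and 16840.0 ± 319 (SD, n = 2), and the log2 fold change was -0.50 ± 0.07 (SE, DESeq2 adjusted p = 7.13e-11). The groups were well apart, but the median of its chromosome was -0.35, and relative to it the log2 fold change was -0.15 (adjusted p = 0.0979).

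Among the beaded-filament collagens of type VI, *Col6a5* (chr9:105758400-105862974), an additional chain of that type, was lower. It had 459 and 408 normalized counts in WT and 204 and 196 in the KO-labelled libraries. Its mean fell from 434 ± 35.6 to 199.7 ± 5.74 (n = 2, SD), with a log2 fold change of -1.12 ± 0.20 (SE, DESeq2 adjusted p = 3.1e-07). *Col6a5* was the highest collagen VI gene in WT, and both KO-labelled libraries lay below both WT libraries. *Col6a4* had 156 and 173 normalized counts in WT and 159 and 177 in the KO-labelled libraries, and its log2 fold change of 0.02 had a 95% interval of -0.50 to 0.55. *Col6a2* (-0.69), *Col6a6* (-0.72) and *Col6a3* (1.14), all under 50 normalized counts in each library, did not pass the test. *Col6a1*, a core chain of type VI, was below the count limit.

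The fibrillar class had a median log2 fold change of -0.25 over 9 genes. *Col11a1* (chr3:113733458-113923636), a chain of the cartilage collagen XI that sets fibril width, had the largest fall of the 32 genes. It had 129.9 and 116.5 normalized counts in WT and 23.5 and 32.1 in the KO-labelled libraries. Its mean fell from 123 ± 9.48 to 27.8 ± 6.06 (n = 2, SD), with a log2 fold change of -2.14 ± 0.41 (SE, DESeq2 adjusted p = 2.15e-06). It was clearly apart between the groups, although the raw counts in the KO-labelled libraries were 27 and 41. *Col27a1* (chr4:62875038-62996025), a fibrillar chain with a shorter helix, had 193.6 and 220.0 normalized counts in WT and 101.9 and 99.4 in the KO-labelled libraries. Its log2 fold change of -1.04 ± 0.28 (SE) came with an adjusted p of 0.00104 in DESeq2, just above the limit for a call. edgeR and DESeq2 on a filtered table called it, and it lost its adjusted p under 0.05 without WT replicate 2 or KO-labelled replicate 2.

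The collagens I, II, III and V did not pass the DESeq2 test. *Col1a1* (chr11:94797538-94814356), the main chain of type I collagen, had 27.8 and 21.8 normalized counts in WT and 49.6 and 47.7 in the KO-labelled libraries. Its log2 fold change was 0.98 ± 0.56 (SE, adjusted p = 0.188), and edgeR gave an adjusted p of 0.0399. Its partner *Col1a2* (chr6:4454814-4491543), below the count limit, had raw counts of 10 and 12 in WT and 6 and 8 in the KO-labelled libraries (log2 fold change -1.20 ± 1.08, SE, adjusted p = 0.452). The chains of type I collagen were thus under 50 normalized counts in every library. *Col5a1*, at 652 and 600 normalized counts in WT and 585 and 554 in the KO-labelled libraries, had a log2 fold change of -0.14 with a 95% interval of -0.43 to 0.16. *Col2a1*, the main cartilage collagen, had a log2 fold change of -0.17 with an interval of -0.66 to 0.33. *Col5a2* (-0.91, adjusted p = 0.0972), *Col11a2* (-0.74), *Col3a1* (-0.25) and *Col5a3* (0.25) were lower in level and had wider errors. edgeR put *Col5a2* and the fibril-associated *Col14a1* under an adjusted p of 0.05, both lower.

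**Figure D4:**
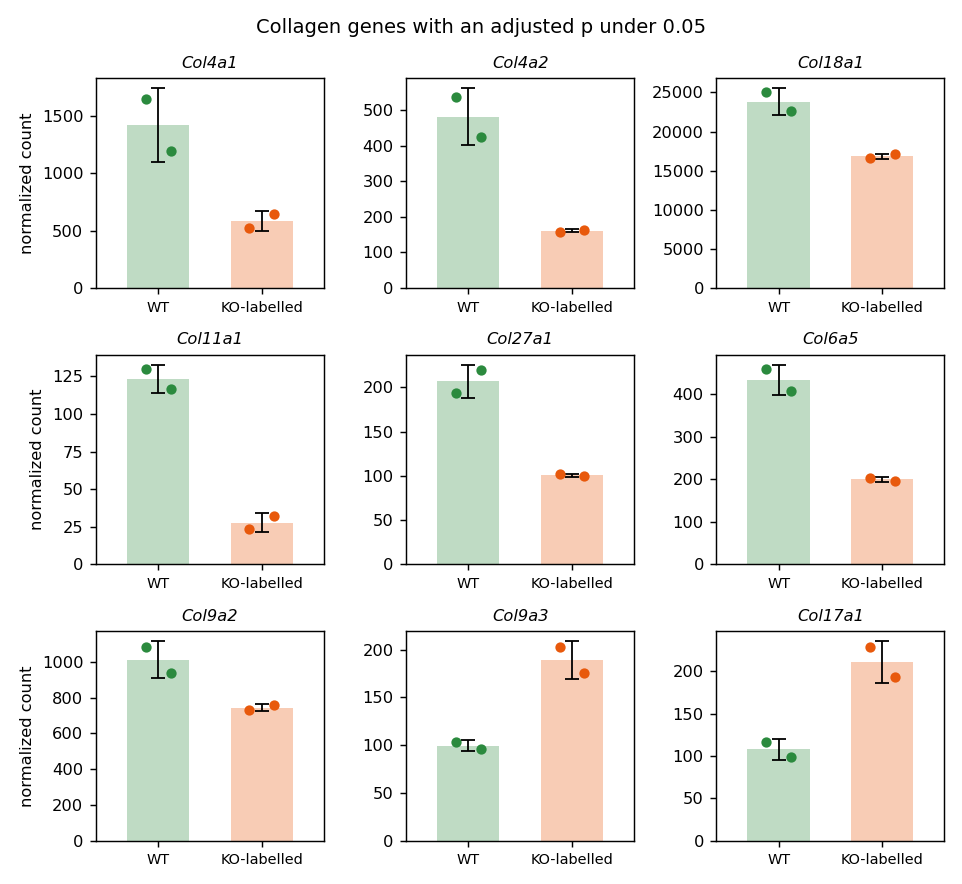
Normalized counts of the 9 collagen genes with a DESeq2 adjusted p under 0.05, by library, each panel on its own axis from 0, with WT in green and KO-labelled in orange. WT and KO-labelled libraries do not overlap in any panel; 7 genes were lower and *Col17a1* and *Col9a3* higher.

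The chains of the fibril-associated collagen IX moved in opposite directions. *Col9a2* (chr4:120711990-120727927) had 1085 and 939 normalized counts in WT and 731 and 757 in the KO-labelled libraries. Group means were 1012 ± 103 and 744 ± 18.5 (SD, n = 2), and the log2 fold change was -0.44 ± 0.13 (SE, DESeq2 adjusted p = 0.00444). *Col9a3* (chr2:180332495-180356894) had 103 and 95.8 normalized counts in WT and 203 and 175 in the KO-labelled libraries. Group means were 99.6 ± 5.36 and 189 ± 19.5, and the log2 fold change was 0.93 ± 0.29 (SE, DESeq2 adjusted p = 0.00653). The ratio of *Col9a2* to *Col9a3* per kilobase was 13.1 and 12.2 in WT and 4.48 and 5.37 in the KO-labelled libraries, while *Col9a1*, the remaining chain, was below the count limit. Relative to the median of its chromosome, *Col9a2* had a log2 fold change of -0.24 (adjusted p = 0.194) and *Col9a3* of 0.82 (adjusted p = 0.022). *Col9a3* lost its adjusted p under 0.05 when any single library was left out, and *Col9a2* when any but WT replicate 2 was. *Tcfl5* on the other strand covers 6.07% of the exonic bases of *Col9a3*. *Col12a1*, *Col14a1*, *Col16a1*, *Col20a1* and *Col22a1*, the other fibril-associated members, had log2 fold changes from -1.03 to -0.01, and none passed the DESeq2 test.

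The transmembrane collagens had a median log2 fold change of 0.39 over 4 genes. *Col17a1* (chr19:47720834-47766584) codes for a hemidesmosome protein that ties epithelial cells to the basement membrane. It had 116.7 and 99.1 normalized counts in WT and 228 and 193 in the KO-labelled libraries. Group means were 107.9 ± 12.4 and 211 ± 24.6 (SD, n = 2), and the log2 fold change was 0.97 ± 0.28 (SE, DESeq2 adjusted p = 0.00296). The groups did not overlap, but the median of chromosome 19 was 0.38, and relative to it the log2 fold change was 0.59 (adjusted p = 0.116). *Col17a1* kept an adjusted p under 0.05 without WT replicate 1 and lost it without any other single library. *Col13a1* (0.44), *Col23a1* (0.34) and *Col25a1* (-0.38) did not pass the test.

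The anchoring-fibril collagen *Col7a1* had a log2 fold change of -0.29 with a 95% interval of -0.85 to 0.27. The hexagonal-network collagens *Col10a1* (-0.96) and *Col8a2* (-0.15) did not pass the test either. Of the 32 genes, 23 had an adjusted p of 0.05 or above, with SEs from 0.15 to 1.04 and a median of 0.65 on the log2 scale. For most of these a change of 2-fold was not detectable with DESeq2 at such SEs.

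Genes that act on collagen were compared by list. Among all genes tested, 16.4% were higher and 15.8% lower at an adjusted p under 0.05, the background for each list. Of 14 genes for hydroxylation and glycosylation, 13 had an adjusted p, and 3 were higher and 1 lower at an adjusted p under 0.05, with a median log2 fold change of 0.03. These are 23.1% and 7.69% of the 13. *Crtap*, part of the prolyl 3-hydroxylation complex, was higher (log2 fold change 0.54 ± 0.105, SE, adjusted p = 2.49e-06), as were the lysyl hydroxylase *Plod1* (0.42) and *Leprel2* (0.72), of the prolyl 3-hydroxylase family. *P4ha1*, a catalytic subunit of prolyl 4-hydroxylase, was lower (-0.55, adjusted p = 5.36e-05). For *P4ha1*, on chromosome 10, the value relative to the chromosome median was -0.20 (adjusted p = 0.226).

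In folding and export, *Sec24d* had the largest change. It codes for a coat protein of the vesicles that leave the endoplasmic reticulum, and collagen export is known to depend on it. The mean fell from 1142 ± 68.8 normalized counts to 265 ± 7.98 (n = 2, SD), with a log2 fold change of -2.11 ± 0.146 (SE, DESeq2 adjusted p = 1.05e-44). The collagen chaperone *Serpinh1* was higher by 0.23 (adjusted p = 0.0101), and *Ctage5*, a receptor component at the export sites, lower (-0.44, adjusted p = 5.49e-06). Relative to chromosome medians *Serpinh1* and *Ctage5* had adjusted p of 0.183 and 0.338, and the prolyl isomerase *Ppib* had a log2 fold change of -0.26 (adjusted p = 0.0177) where it was -0.12 (0.325) before. Of the 9 genes, 1 was higher and 2 were lower, with a median of -0.18.

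Propeptide removal and cross-linking had 1 gene higher and 2 lower of 12 with an adjusted p (14 listed), with a median log2 fold change of -0.20. *Pcolce*, which enhances removal of the C-terminal propeptide, was higher (0.33). *Pxdn*, the peroxidase that cross-links type IV collagen, was lower (-0.62, adjusted p = 0.00263), as was the lysyl oxidase-like gene *Loxl1* (-0.84). *Pxdn* had an adjusted p of 0.221 relative to the median of its chromosome. Among the collagen receptors, 2 of 7 with an adjusted p (10 listed) were lower, the receptor kinases *Ddr2* (-1.04) and *Ddr1* (-0.39). DESeq2 placed 0 receptors higher, also at an unadjusted p under 0.05, where 4 were lower. At that unadjusted p 20.1% of all genes tested were higher and 19.5% lower. Relative to chromosome medians 4 receptors were lower, *Itgb1* (-0.27, adjusted p = 0.00241) and *Mrc2* (-0.72, adjusted p = 0.0265) being added, which had adjusted p of 0.083 and 0.0962 before.

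Decreases were also found in other basement membrane genes. Of 16 partners of type IV collagen, 9 fell and 2 rose at an adjusted p under 0.05, with a median log2 fold change of -0.42. These are 56.2% and 12.5% of the list, against 15.8% and 16.4% of all genes. The laminin chain *Lama1* fell from 3393 ± 80 normalized counts to 1099 ± 60.5 (n = 2, SD), with a log2 fold change of -1.63 ± 0.0959 (SE, adjusted p = 6.8e-62). *Lamb1*, its partner in laminin-111, fell from 5595 ± 452 to 2223 ± 54.4 (log2 fold change -1.33, adjusted p = 3.42e-49). *Lama5* fell from 15870 ± 2079 to 8229 ± 29.7 (-0.95, adjusted p = 1.25e-25). *Nid1*, which links laminin to type IV collagen, was higher (0.47, adjusted p = 7.02e-09), and so was *Sparc*, a collagen-binding matrix protein, at 12538 ± 61.4 in WT and 19642 ± 230 in the KO-labelled libraries (0.65, adjusted p = 6.35e-22). In this list basement membrane genes therefore moved both ways. Relative to chromosome medians 8 were lower and 2 higher, and *Agrn*, a heparan sulfate proteoglycan, went from -0.26 (adjusted p = 0.00381) to -0.05 (adjusted p = 0.698).

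**Figure D5:**
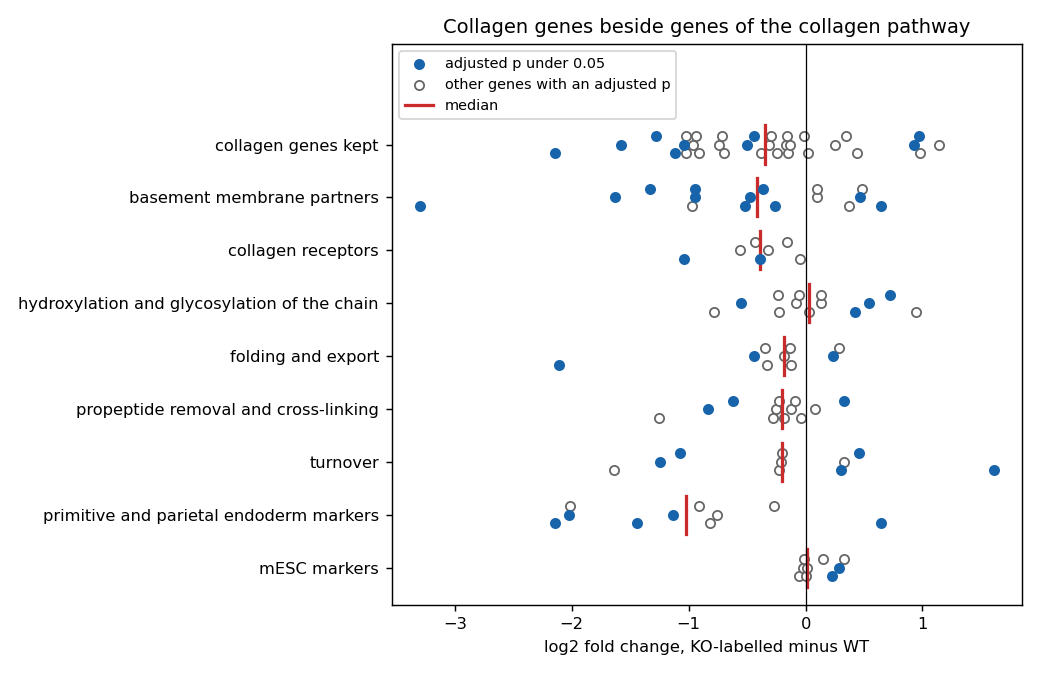
Log2 fold changes (KO-labelled minus WT) of the genes in each list, with filled points for a DESeq2 adjusted p under 0.05 and a red line at each list's median. The basement membrane partners have 9 filled points below 0 and 2 above, and the endoderm markers 4 below and 1 above.

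Among the 16 genes of matrix turnover, 10 had an adjusted p, 3 were higher and 2 lower, with a median of -0.20. The inhibitor *Timp2* rose from 78.9 to 242 normalized counts (log2 fold change 1.61, adjusted p = 4.18e-07), and *Mmp14* (0.46) and *Mmp11* (0.30) were higher. The inhibitor *Timp3* fell from 616 to 260.4 normalized counts (-1.24, adjusted p = 4.56e-11), and the gelatinase *Mmp2* was lower (-1.07, adjusted p = 1.43e-05).

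Markers of other cell types were also compared. Of 13 markers of primitive and parietal endoderm, a lineage known to make type IV collagen and laminin, 12 had a log2 fold change below 0, and of 10 with an adjusted p 4 were lower (40%, against 15.8% of all genes) and 1 higher (10%, against 16.4%). Over all genes with an adjusted p 49.5% were below 0. The 12 markers below 0 include *Sox17*, *Foxa2* and *Foxq1*, which had no adjusted p, so this share is not over like genes. *Sox7* (-1.45), *Thbd* (-2.02) and *Cubn* (-2.14) were lower, and so was *Gata4*, while *Sparc*, also listed here, was higher. The whole list summed to 13357 and 13353 normalized counts in WT and to 20163 and 19817 in the KO-labelled libraries, nearly all of it *Sparc*. Without *Sparc* the other 12 markers summed to 776 and 858 normalized counts in WT and to 359 and 338 in the KO-labelled libraries. *Foxa2* and *Sox17* were at no more than 15.3 normalized counts in any library. The part of these markers in the lower type IV collagen and laminin was not tested. Of 11 fibroblast markers, 5 had an adjusted p, *Thy1* was higher (1.59) and *Acta2* lower (-2.25). *Fap* had a count of 0 in every library, and *Dcn*, *Lum*, *Postn* and *Twist2* were at no more than 8.71 normalized counts. The fibroblast markers summed to 485 and 448 normalized counts in WT and to 603 and 694 in the KO-labelled libraries, and without *Thy1* to 367 and 310.4 against 246 and 280.2. The direction of the sum thus turned with that gene, and most of the rest was *Fbn1* (adjusted p = 0.337). Of the 9 mESC markers, *Dppa5a* (0.28) and *Zfp42* (0.23) were higher, and DESeq2 placed 0 lower, also at an unadjusted p under 0.05. Relative to chromosome medians neither passed, with adjusted p of 0.0834 for *Dppa5a* and 0.255 for *Zfp42*. *Esrrb* (0.29, adjusted p = 7.85e-05) and *Klf4* (0.22, adjusted p = 0.0192) were then higher, where their adjusted p had been 0.83 and 0.924.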

How the data were processed

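Per the study's methods, stranded libraries were made after removal of ribosomal RNA, and reads were mapped by the authors to mouse genome build mm9 with STAR and assigned to GENCODE vM1 genes with featureCounts. The authors deposited the gene-level read counts without scaling. Versions, the strand setting, and the treatment of read pairs and of reads with several matches are not given in the sources used here. A count of 2 was more frequent than a count of 1 in each library (1562 to 1705 genes against 689 to 754), as if the reads of a pair were counted separately. The series text names a NextSeq and the methods a HiSeq. There were 0 columns without a sample.

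DESeq2 1.42.0 in R 4.3.3 was run on all 37310 genes (Wald test, group alone, Benjamini-Hochberg adjustment over the 17710 genes with an adjusted p), after a check on simulated data. Positive values are higher in the KO-labelled libraries. Calls needed a 2-fold change or more and an adjusted p under 0.001. Intervals of fold changes at 95% use the SE and, like all errors here, rest on 2 libraries per group. Alternatives were edgeR 4.0.16, TMM and upper-quartile size factors, a count filter, other thresholds, a replicate block, each library left out, and chromosome medians (genes with a mean of at least 50) removed. Positions, promoters and coding sequences are from the mm9 annotation and genome. Matches to other loci of at least 75 bases and 97% identity (blastn 2.17.0) covered no more than 1.38% of the exonic bases of any collagen gene, and overlaps with other genes no more than 6.07%.

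Collagen genes and the pathway lists were chosen with earlier results of these data known. Every collagen gene with at least 40 counts was named, with full values for those called, for *Col4a1*, *Col4a2*, *Col1a1*, *Col1a2* and *Col18a1*, and for those with an adjusted p under 0.05 and a mean of at least 500 normalized counts. From each list up to 3 genes per direction with an adjusted p under 0.05 were named, smallest first. Full values of *Col27a1*, *Col17a1* and *Col9a3*, and *Gata4*, *Foxa2*, *Sox17*, *Ppib*, *Itgb1*, *Mrc2*, *Agrn*, *Esrrb*, *Klf4*, *Fbn1*, the fibroblast markers near 0 and the remaining values given by library or interval were added after they were seen. Of the listed genes 1, *Mia3*, is not named in the annotation and was not used here.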

Additional observations from a re-analysis of the deposited data

How the results depend on the processing

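With TMM or upper-quartile size factors there were the same 4 lower calls and 0 higher. edgeR called 5 genes lower, among them *Col27a1*, and put 3 higher and 9 lower at an adjusted p under 0.05. The count filter also gave 5 lower calls. With the replicate block there were 4 lower calls and a median log2 fold change of -0.38 over the 28 genes with an adjusted p. Same-numbered libraries had a correlation of deviations of -0.02 over 13306 genes, so the numbers are not taken to pair them. With chromosome medians removed, 1 gene was higher and 5 lower at an adjusted p under 0.05, and *Col17a1*, *Col18a1* and *Col9a2* no longer passed, which follows from the medians subtracted. Every count was also divided by 2, chosen after seeing the data because reads of a pair may have been counted separately. The median was then -0.44 over the 27 of the 32 genes that still had an adjusted p. Leaving out each library gave a median from -0.47 to -0.22. These medians are over the 19 to 23 genes that then had an adjusted p, so the set of genes changed along with the libraries. In each case the lone library was assumed to vary like the other group. None of the 9 genes with an adjusted p under 0.05 changed sign when a library was left out or chromosome medians were removed. Depth limits the low collagens first, and the WT libraries were the shallower ones.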
